A study of Mus musculus with 6 samples.

Results

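The genes described here are 10 transcription factors and response genes of the AP-1 and immediate early class: Fos, Fosb, Fosl1, Fosl2, Jun, Junb, Jund, Egr1, Atf3 and Ier2. They were chosen by symbol, and all 10 were found among the 52249 genes of the count table. The libraries were made from cultured mouse intestinal organoids, small epithelial structures that grow from gut stem cells. All 6 were labelled as carrying an Apc knockout, which removes a restraint on WNT signalling; 3 had the genotype Apc-knockout alone (control here) and 3 were labelled Apc-knockout with IGF2BP3 overexpression (OE here, after their label). The labels give no treatment, no time, no age, and neither the promoter nor the species of the IGF2BP3 construct. Igf2bp3 itself had 1 count in replicate 1 of each group and 0 in the other 4 libraries, so the counts of the mouse gene gave no check of the OE label. Apc had 164 to 182 counts in control and 148 to 158 in OE libraries; the labels do not say which part of the gene was deleted, so these 3′ tags do not check the knockout either. Scaled for depth, Apc was lower in OE libraries (log2 fold change -0.37, SE 0.12, edgeR adjusted p = 0.0323).

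AP-1 is a dimer of basic leucine zipper proteins. JUN proteins pair with each other or with FOS proteins, FOS proteins need a JUN partner, and the dimer binds the sequence TGANTCA or, with ATF or CREB proteins, related sites. Many of these genes are switched on within minutes by growth factor, MAPK or stress signals without new protein synthesis, and their mRNAs are short-lived because of AU-rich elements in the 3′ untranslated region. In the intestine JUN and FOS activity is known for its part in crypt proliferation and wound responses, and Jun cooperates with WNT signalling in adenoma formation in mice.

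The upstream DNA of 4 genes is shown first, because these are the founding member of each family and the genes whose change passed the test. Each stretch is the 110 bases before the RefSeq start of the gene in GRCm38.p6, in the direction of transcription. Capitals mark TGACG (a core shared by CRE-type sites), TGACATCA (the AP-1-like site of the Jun promoter), GCGNGGGCG (the EGR consensus) and TATAAA. The Fos stretch lies at chr12:85473780-85473889 on the plus strand, that of Jun at chr4:95052223-95052332 on the minus strand, that of Fosl2 at chr5:32136362-32136471 on the plus strand and that of Junb at chr8:84978749-84978858 on the minus strand.
Fos: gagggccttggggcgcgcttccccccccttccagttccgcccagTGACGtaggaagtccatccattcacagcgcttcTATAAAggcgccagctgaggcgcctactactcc
Jun: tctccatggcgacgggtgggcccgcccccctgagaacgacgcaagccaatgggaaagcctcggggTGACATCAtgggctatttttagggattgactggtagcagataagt
Fosl2: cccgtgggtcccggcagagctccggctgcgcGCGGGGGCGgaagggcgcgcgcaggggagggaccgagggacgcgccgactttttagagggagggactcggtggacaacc
Junb: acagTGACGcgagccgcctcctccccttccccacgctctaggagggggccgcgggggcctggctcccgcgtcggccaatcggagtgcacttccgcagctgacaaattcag

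A promoter entry was matched for 7 of the 10 genes (Atf3, Fos, Fosb, Fosl2, Jun, Junb and Jund), each 300 bases long with 250 before and 50 after the start, and motifs were searched on both strands. TGACG was found in 4 of the 7 (Atf3, Fos, Fosb and Junb), against 20.8% of 32851 promoters of the same length. TGACATCA was found in 1, Jun, where it began 45 bases before the start; 3.62% of all promoters held it. The EGR consensus GCGNGGGCG was found in Fosb and Fosl2 (5.55% of all promoters), and in both it overlapped a GGGCGG box, which 5 of the 7 held (35.7% of all). TATAAA was found in Fos, 33 bases before the start, and in Junb at the RefSeq start itself (13.6% of all). The letters TGANTCA, TGACGTCA and the CArG box, the SRF site, were in none of the 7 windows. Of all promoters 7.81%, 1.79% and 1.63% held them. DNA more than 250 bases before the start was not searched, nor were the promoters of Fosl1, Egr1 and Ier2. Sites there would not be seen. The Jund window (chr8:70697489-70697788) ends upstream of the start that GENCODE M21 gives for Jund (70698949), so it is not the DNA next to that start. The Atf3 window (chr1:191183284-191183583, minus strand) lies downstream of the outermost GENCODE M21 start of that gene (191218039). The same holds for the Fosl2 window (chr5:32136222-32136521, plus strand), whose gene starts at 32135801 there. In the Junb window (chr8:84978699-84978998, minus strand) the GENCODE M21 start (84978718) lies downstream of the RefSeq start. The TATAAA of Junb is therefore upstream of the GENCODE start, and the stretch printed above ends before it.

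The AU-rich pentamer ATTTA was in the longest annotated 3′ untranslated region of 9 of the 10 genes, Ier2 being the exception. The 25 bases with the most copies are shown for the same 4 genes, from GENCODE M21 transcripts, with ATTTA in capitals.
Fos: tgttttcaATTTATTTAttaagatg
Jun: cATTTAtaatcataggaaagATTTA
Fosl2: tgacATTTAttttattATTTAtttt
Junb: atatttgtgtATTTAacagggaggg
Fos held 4 copies in 815 bases, Jun 4 in 1233, Junb 2 in 485 and Fosl2 8 in 4653. Of the 9 genes with a region of at least 500 bases, 7 had ATTTA in its last 500 bases, against 58.1% of 7775 tested genes. The longer TATTTAT, which contains ATTTA, was there in 5 of the 9, against 14.6% of those genes.

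The library names place the control libraries in one series and the OE libraries in another, so every comparison below is between series as well as between labels, and these cannot be told apart. Total counts ran from 2180087 to 2519886 per library, and the floor of 3 counts lay between 1.18 and 1.41 CPM (counts relative to the library size after TMM scaling). The OE libraries varied more among themselves (biological coefficient of variation 17.2%) than the control libraries (3.1%). Mitochondrial ribosomal RNA took 8.93% to 9.41% of control and 3.89% to 4.36% of OE counts. Of 10 epithelial markers 9 passed the count filter, 5 of them higher and 1 lower in OE libraries, with Cdx1 at 0 counts throughout. The 10 fibroblast and muscle markers summed to at most 1.88 CPM and the 6 endothelial markers to at most 1.84 CPM in any library. Among the immune markers Cd3e, Adgre1 and Lyz2 were at 0 and Ptprc at no more than 2 counts; the list summed to 171 to 177 CPM in control and 145 to 267 CPM in OE libraries, through Cd14, Csf1r and Cd68. Csf1r was higher by 0.68 (log2; SE 0.15, edgeR adjusted p = 0.0061), and its part in the results was not tested.

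Because these 3′ libraries give about 1 tag per transcript whatever its length, CPM levels were set side by side between genes without dividing by length. In control libraries Junb was the most abundant of the 10 at 255 ± 4.12 CPM, followed by Jund at 173 ± 11.5 CPM (SD, n = 3). Fosl2 (101 ± 3.93 CPM) and Jun (99.3 ± 3.51 CPM) came next with overlapping ranges, then Egr1 at 54.4 ± 3.33 CPM (SD, n = 3). Ier2 (28.4 ± 1.4 CPM) and Fos (25.2 ± 4.86 CPM) overlapped, as did Atf3 (13.1 ± 2.43 CPM) and Fosl1 (10.2 ± 5.57 CPM; SD, n = 3). In OE libraries Junb (171 ± 28.7 CPM), Jund (159 ± 34.8 CPM) and Fosl2 (131 ± 13.6 CPM) each overlapped the next in order (SD, n = 3). Jun (85.1 ± 3.92 CPM) followed apart from these, Egr1 (43.1 ± 5.94 CPM) and Ier2 (35.3 ± 10.3 CPM) overlapped, and so did Fos (16.8 ± 7.67 CPM) and Atf3 (14.2 ± 1.19 CPM), with Fosl1 (9.38 ± 1.16 CPM) under Atf3 (SD, n = 3). Junb and Jund had the highest means in both groups, and Fos itself was a minor AP-1 transcript.

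**Figure D1:**
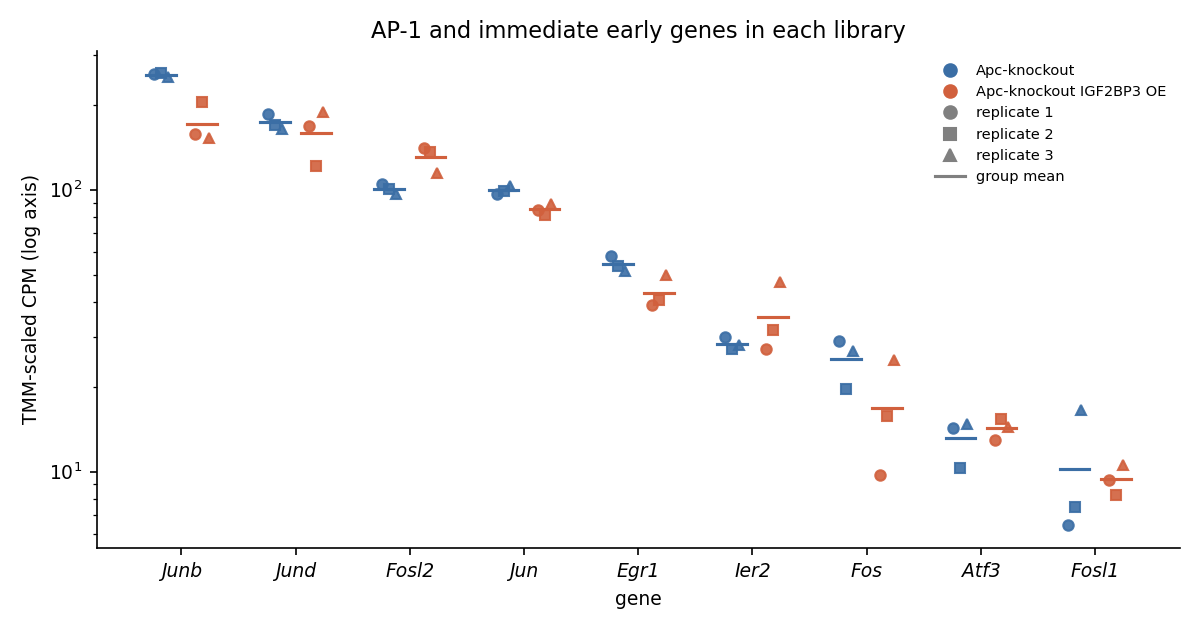
TMM-scaled CPM (log axis) of the 9 genes that passed the count filter, 1 point per library, with replicates by symbol, groups by colour and a bar at each group mean. The 3 control points of Junb (251 to 258) lie above all OE points (153 to 204), the Fosl2 points lie the other way round, and the Fos and Jund points overlap.

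Of the 10 genes, 9 passed the count filter and were tested. With an edgeR adjusted p below 0.05, 1 gene (Junb) was lower and 1 (Fosl2) higher in OE libraries, that is 2 of 9, while 29.2% of all 10687 tested genes passed (16.5% higher, 12.7% lower). The share among these genes was therefore near the background. Control and OE values were fully separated for 4 of the 9 genes (Fosl2, Jun, Junb and Egr1), against 45.7% of all tested genes. The median log2 fold change of the 9 was -0.12 with 3 above 0, beside a median of 0.04 over all tested genes. The median of the 9 was -0.36 with an offset for the GC content of transcripts. It was -0.25, -0.23 and -0.16 without control replicates 1, 2 and 3, and -0.22, -0.07 and -0.25 without OE replicates 1, 2 and 3. In these bulk libraries, fewer cells of a type and less RNA per cell cannot be told apart.

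Among the JUN genes, Junb fell. JunB is often a slower partner that limits Jun activity and supports differentiation programmes. Junb (ENSMUSG00000052837, chromosome 8, 84974484 to 84978718, minus strand, GRCm38) had 257, 258 and 251 CPM in control replicates 1 to 3 and 157, 204 and 153 CPM in OE replicates 1 to 3. All OE values were under all control values, and OE replicate 2 was nearest to control. The log2 fold change was -0.57 (SE 0.12, 95% interval -0.84 to -0.31, edgeR adjusted p = 0.00467). It passed in all 17 alternatives, with values from -0.85 to -0.49. The difference was as large without the mitochondrial genes and the ribosomal RNA gene CT010467.1, at -0.63. The last 351 bases of Prdx2, a peroxiredoxin gene on the opposite strand, overlap the 3′ end of Junb, and the use of strand in counting is not given in the sources used here. Prdx2 went the other way, from 187 ± 7.04 to 272 ± 20.8 CPM (SD, n = 3; edgeR adjusted p = 0.00268).

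Jun, the founding member and the main substrate of JNK, had nearly equal counts in all libraries, from 207 to 224. Scaled for depth, these gave 96.3, 98.5 and 103 CPM in control against 84.7, 81.4 and 89.2 CPM in OE libraries. The ranges did not overlap, but the log2 fold change of -0.22 (SE 0.11, 95% interval -0.47 to 0.02) did not pass (edgeR adjusted p = 0.153). With the GC offset it was -0.43 and passed (edgeR adjusted p = 0.0203). Jun (ENSMUSG00000052684, chromosome 4, 95049034 to 95052222, minus strand) has a single exon and overlaps the antisense gene Junos, which had 3 to 6 counts per library.

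Jund, which is expressed at a steady level in many tissues rather than induced, had 186, 169 and 164 CPM in control against 168, 121 and 189 CPM in OE libraries. OE replicate 2 was the lowest and OE replicate 3 the highest of all 6, so the groups overlapped. Its log2 fold change was -0.12 (SE 0.15, 95% interval -0.44 to 0.2, edgeR adjusted p = 0.573), and it became 0.01 without OE replicate 2. Jund (ENSMUSG00000071076, chromosome 8, 70698949 to 70700616, plus strand) also has a single exon and overlaps Gm11175 on the opposite strand, which had 0 counts. Its low value and the high value of Junb fell in the same library, OE replicate 2.

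Summed over the 3 JUN genes, the level was 528 ± 10.6 CPM in control (SD, n = 3). In OE libraries it was 416 ± 13 CPM (SD, n = 3), and the groups did not overlap. Junb made up 47.6%, 49.2% and 48.4% of the JUN counts in control and 38.3%, 50.2% and 35.4% in OE libraries, so this share overlapped between groups. The share of Jun was 17.9% to 19.9% in control and 20% to 20.7% in OE libraries.

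Among the FOS genes, Fosl2 (Fra-2) rose. It lacks the strong activation domain of Fos and persists after stimulation. Fosl2 (ENSMUSG00000029135, chromosome 5, 32135801 to 32157842, plus strand) had 105, 101 and 96.8 CPM in control against 140, 136 and 115 CPM in OE libraries. All OE values were above all control values, with OE replicate 3 the nearest to control. The log2 fold change was 0.37 (SE 0.12, 95% interval 0.12 to 0.63, edgeR adjusted p = 0.031), which is just under the upper quartile of all tested genes (0.38). The call was lost in 11 of 17 alternatives, among them DESeq2's test (0.33, adjusted p = 0.129), the GC offset (0.22, edgeR adjusted p = 0.213) and removal of the mitochondrial genes and CT010467.1 (0.32, edgeR adjusted p = 0.0635). It was also lost without any 1 of control replicates 1, 2 or 3 (0.4, 0.37 and 0.34) or OE replicates 1 or 2 (0.27 and 0.32). Without OE replicate 3 it was 0.46 (edgeR adjusted p = 0.00586).

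Fos, the classical immediate early gene, had 29, 19.7 and 26.7 CPM in control against 9.72, 15.7 and 24.9 CPM in OE libraries. These rested on 24 to 63 counts per library, OE replicate 1 was the lowest, and OE replicate 3 lay within the control range. The log2 fold change of -0.59 was close in size to that of Junb, but with an SE of 0.29 and a 95% interval from -1.21 to 0.04 it did not pass (edgeR adjusted p = 0.143). It was -0.97 without OE replicate 3 (edgeR adjusted p = 0.0135) and -0.37 without OE replicate 1 (edgeR adjusted p = 0.229). Fos (ENSMUSG00000021250) lies on the plus strand of chromosome 12, from 85473890 to 85477273, and overlaps no other annotated gene.

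Fosl1 (Fra-1), a FOS protein induced by sustained ERK signalling and linked to invasive growth, had counts of 14, 16 and 36 in control against 23, 21 and 25 in OE libraries. Control replicate 3 was the highest and the other control libraries were the lowest of the 6. On the log2 scale the change was -0.12 (SE 0.34, 95% interval -0.86 to 0.62, edgeR adjusted p = 0.819), and it was 0.42 without control replicate 3 (edgeR adjusted p = 0.39). Fosl1 (ENSMUSG00000024912, chromosome 19, 5447547 to 5455946, plus strand) shares 2767 bases with Ccdc85b on the opposite strand, which had 12, 14 and 23 counts in control libraries and was also highest in replicate 3. Fosb had counts of 5, 1 and 4 in control against 3, 3 and 0 in OE libraries. It did not pass the count filter and was given no fold change.

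The FOS genes together reached 138 ± 7.86 CPM in control (SD, n = 3) against 158 ± 6.1 CPM in the OE group (SD, n = 3), without overlap. Fosl2 made up 73.5%, 78.5% and 68.2% of the FOS counts in control and 87.4%, 84.4% and 76.4% in OE libraries. The share of Fos was 20.4%, 15.3% and 18.8% against 6.1%, 9.7% and 16.6%. OE replicate 3 was the closest to control in both shares, and both overlapped between groups. The ratio of JUN to FOS counts, which does not depend on how libraries are scaled, was 3.79, 4.09 and 3.65 in control and 2.56, 2.52 and 2.86 in OE libraries. This ratio did not overlap between groups, with means of 3.84 ± 0.22 and 2.65 ± 0.19 (SD, n = 3). The families were chosen with the values known, so no test is given.

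**Figure D2:**
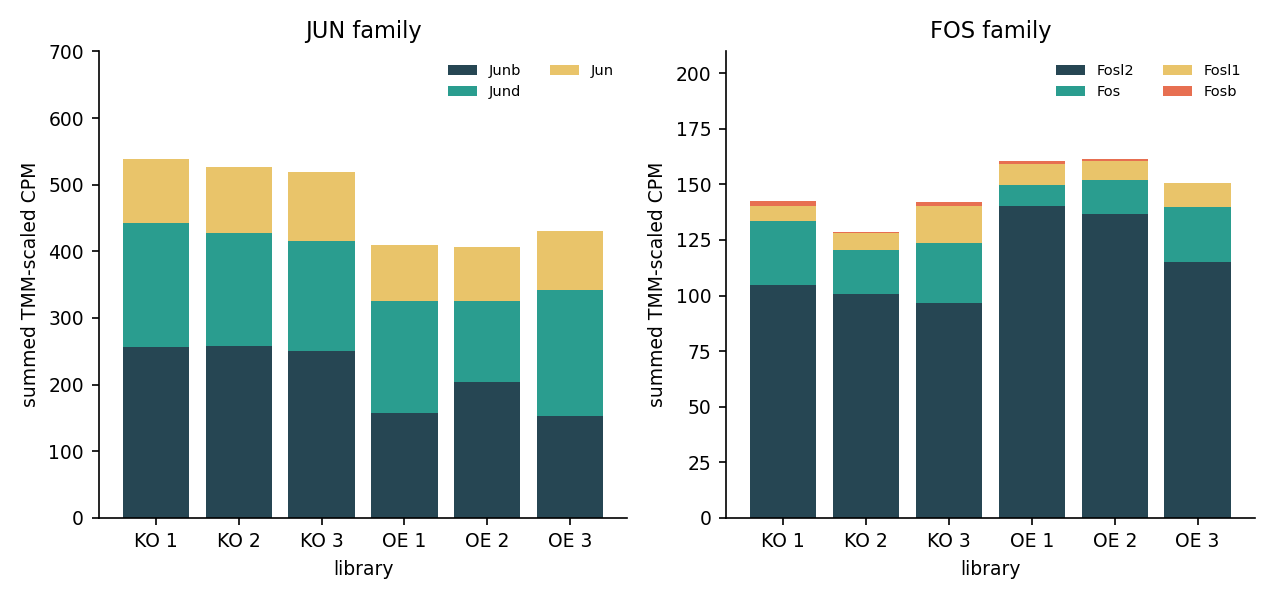
Summed TMM-scaled CPM of the JUN genes (left) and the FOS genes (right) in each library (KO, control; OE, OE), stacked by gene, with both axes from 0. The JUN bars are 518 to 539 CPM in control and 407 to 431 CPM in OE libraries, and Fosl2 is the largest part of every FOS bar.

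Egr1, a zinc finger factor induced through SRF and ERK together with Fos, had 58.1, 53.5 and 51.6 CPM in control against 38.9, 40.5 and 49.9 CPM in OE libraries. The ranges did not overlap, though OE replicate 3 came close to the lowest control library. Its change was -0.34 on the log2 scale (SE 0.14, 95% interval -0.65 to -0.02), and after adjustment over all genes it did not pass (edgeR adjusted p = 0.0971). The GC offset gave -0.57 (edgeR adjusted p = 0.0141) and the fit without OE replicate 3 gave -0.45 (edgeR adjusted p = 0.0295), and both passed. Egr1 (ENSMUSG00000038418) lies on the plus strand of chromosome 18, from 34859823 to 34864984.

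Ier2, a small nuclear protein induced with Fos, had 30, 27.2 and 28.1 CPM in control against 27.1, 31.9 and 46.9 CPM in OE libraries. OE replicate 3 was the highest and OE replicate 1 the lowest of all 6. The log2 fold change of 0.31 (SE 0.2, 95% interval -0.13 to 0.75) did not pass (edgeR adjusted p = 0.275). Ier2 (ENSMUSG00000053560, chromosome 8, 84661331 to 84662852, minus strand) has a single exon.

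Atf3, a stress-induced CREB-family factor that can pair with Jun, had 14.3, 10.3 and 14.7 CPM in control against 13, 15.3 and 14.4 CPM in OE libraries. The groups overlapped, and the log2 fold change was 0.12 (SE 0.23, 95% interval -0.38 to 0.61, edgeR adjusted p = 0.737). Atf3 (ENSMUSG00000026628) lies on the minus strand of chromosome 1, from 191170296 to 191218039; the opposite-strand gene Gm24748 inside it had 0 counts.

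In OE replicate 1, Fos, Egr1 and Ier2 were each the lowest of that group, and in OE replicate 3 each was the highest. These genes were grouped after their values were seen, and the share of all genes with this order was not computed. The other tested members did not have it. Jun, Jund and Fosl1 were lowest in OE replicate 2, Junb and Fosl2 were lowest in OE replicate 3, and Atf3 was highest in OE replicate 2. OE replicates 1 and 3 were the most unlike OE pair over all genes. The coefficient of variation among OE libraries was 45.6% for Fos, 29.3% for Ier2 and 13.8% for Egr1, against 19.3%, 4.93% and 6.12% among control libraries. Atf3 and Fosl1 varied less among OE (8.39% and 12.3%) than among control libraries (18.5% and 54.7%).

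**Figure D3:**
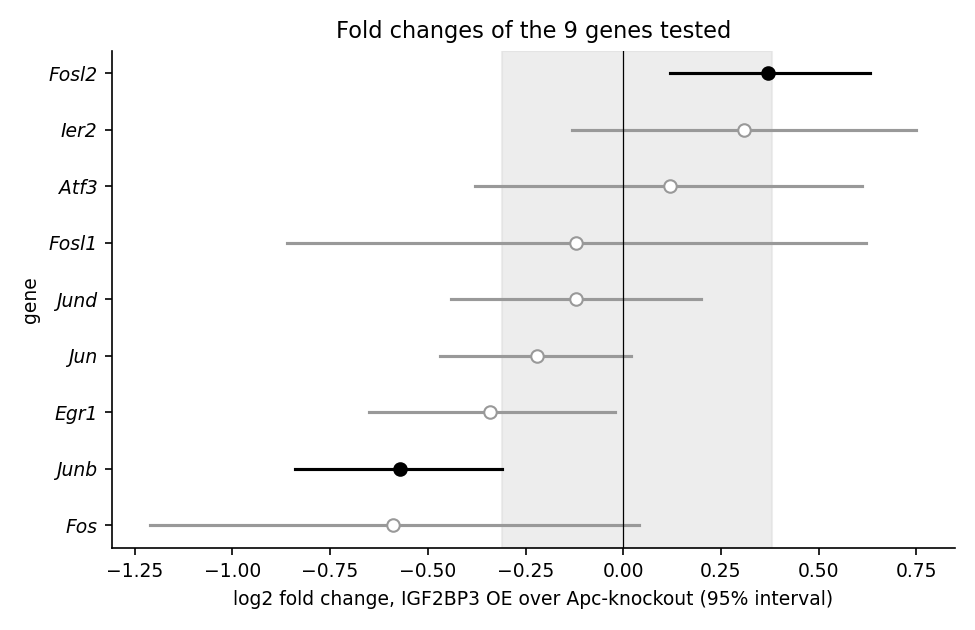
Log2 fold change (OE over control) of the 9 tested genes with its 95% interval from the edgeR fit; filled black points passed at an adjusted p below 0.05, open grey ones did not, and the grey band spans the middle 50% of all tested genes (-0.31 to 0.38). Junb and Fosl2 are filled, and the interval of Fos is the second widest after that of Fosl1.

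By root-mean-square distance of centred log2 CPM over the 6 libraries, the genes nearest to Fos among 9645 (those with a mean log2 CPM of 3 or more) were Nectin1 (0.117), Lta4h (0.118) and Zfp367 (0.121), where the median distance was 0.568. Nearest to Jun were Gcc2 (0.0142), Tut1 (0.0176) and Rb1cc1 (0.0223), with a median of 0.296. None of these 6 genes passed the test.

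Other immediate early genes were then described. Of 40 listed, 32 were tested, and 9 were lower and 1 was higher in OE libraries. That is 31.2% called, against 29.2% of all tested genes (12.7% lower and 16.5% higher). The median log2 fold change of the list was -0.2. Across the alternatives 5 to 12 of this list were lower and 0 to 3 higher. Over all genes 634 to 1731 were lower and 944 to 2035 higher. Without control replicate 1, 2 or 3 the list had 5 lower genes each time (796, 758 and 715 over all genes). Without OE replicate 1 or 3 it had 3 higher genes (1614 and 1959 over all genes). Btg1, an antiproliferative factor, fell from 118 ± 2.27 to 45.2 ± 10 CPM (SD, n = 3; -1.38, SE 0.15, edgeR adjusted p = 0.000104). Dusp5, a nuclear ERK phosphatase, fell from 28.3 ± 3.87 to 11.4 ± 1.83 CPM (SD, n = 3; -1.31, SE 0.21, edgeR adjusted p = 0.000852). Klf6, a zinc finger factor, had 312, 282 and 308 CPM in control against 111, 180 and 174 CPM in OE libraries (-0.96, SE 0.16, edgeR adjusted p = 0.000983). The groups did not overlap for any of these 3 genes, which were named for having the smallest p. In the list 18 of the 32 tested genes did not overlap, against 45.7% of all tested genes.

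The other 6 that were lower, named after their values were seen, were Zfp36l1, Tiparp, Gadd45b, Ccn1, Ccn2 and Myc. Their edgeR adjusted p-values were 0.00215, 0.00498, 0.0318, 0.0324, 0.0266 and 0.0472 in that order. At an adjusted p below 0.01, 5 of the 32 tested genes of the list were lower, against 634 of 10687 over all genes. Myc had 8, 35 and 45 counts in OE replicates 1 to 3, against 46, 67 and 54 in control. Ccn1 had 11.3, 12.2 and 30.4 CPM in OE libraries, against 35.5, 37.1 and 30.9 CPM in control. Ccn2, a matricellular protein gene that YAP also drives, had 649, 726 and 652 CPM in control against 23.1, 297 and 287 CPM in OE libraries, so that OE replicate 1 stood far under the rest. The gene that was higher was Maff, a small MAF protein (62.7 ± 4.14 to 91.9 ± 6.48 CPM, SD, n = 3; 0.55, SE 0.12, edgeR adjusted p = 0.00563). Dusp1, a MAPK phosphatase induced with Fos, had a log2 fold change of 0.55 but did not pass (95% interval 0.12 to 0.98, edgeR adjusted p = 0.0525); it passed without OE replicate 1 (0.65, edgeR adjusted p = 0.0084). Klf4 (0.28, edgeR adjusted p = 0.0651), Ier3 (-0.09, edgeR adjusted p = 0.537) and Zfp36 (-0.28, edgeR adjusted p = 0.605), which encodes a protein that binds AU-rich elements, did not pass either, although Klf4 did without OE replicate 3 (0.34, edgeR adjusted p = 0.0253). Zfp36 had 14.7, 10.3 and 12 CPM in control against 4.05, 11 and 15.6 CPM in OE libraries, lowest and highest in the same OE replicates as Fos. Klf4 and Ier3 had the reverse order, highest in OE replicate 1 and lowest in OE replicate 3. Egr2 was at 0 counts in all libraries and Egr3 at 4 counts or fewer.

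Of 16 leucine zipper partners, 12 were tested, 4 were lower and 1 higher (41.7% called, against 29.2% of all tested genes). The median was -0.13, with -0.28 without OE replicate 1 and -0.06 without OE replicate 3. Maf (-0.78, SE 0.13, edgeR adjusted p = 0.000874), Atf2 (-0.66, SE 0.17, edgeR adjusted p = 0.0111) and Mafg (-0.42, SE 0.11, edgeR adjusted p = 0.0138) were lower; Atf2 is a stress-kinase target that pairs with Jun at CRE-type sites. The call for Atf2 was lost with the GC offset and without control replicate 2 or 3, and that for Mafg without any single control replicate (highest adjusted p 0.0609 and 0.0827).

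Of 22 upstream kinases and SRF-type factors, 20 were tested, 4 were higher and 1 was lower. That is 5 of 20, near the 29.2% of all tested genes. The median was 0.17 with all libraries. When single libraries were left out it was lower each time, from 0.06 (without control replicate 1) to 0.15. It was 0.09 without control replicate 3 and 0.11 without OE replicate 3. Rps6ka1, the ERK-activated kinase RSK1, was higher by 0.73 (SE 0.14, edgeR adjusted p = 0.00231) and Mapk3, which is ERK1, by 0.44 (SE 0.11, edgeR adjusted p = 0.0122). Map3k1, a kinase upstream of JNK, was lower (-0.63, SE 0.12, edgeR adjusted p = 0.00282). Mapk3 did not pass once GC content was offset (0.2 on the log2 scale, adjusted p = 0.235 by edgeR), nor without control replicate 2 or 3 or OE replicate 2 (0.43, 0.41 and 0.37; highest edgeR adjusted p = 0.0746). Srf was among the genes that did not pass the count filter.

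Of 8 turnover factors and corepressors, 7 were tested, 2 were lower and 0 higher by edgeR (28.6% called, near the 29.2% of all tested genes), with a median of -0.3. Itch, a ubiquitin ligase of Jun and JunB, was lower (-0.74, SE 0.16, edgeR adjusted p = 0.00549). Ncor1, a corepressor, was at -0.29 (SE 0.1, edgeR adjusted p = 0.04), a call lost in 8 of 17 alternatives, among them each fit without a control replicate and that without OE replicate 2 (highest adjusted p 0.181).

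Of 21 AP-1 target genes, 16 were tested, 4 were higher and 4 lower, that is 8 of 16, where 29.2% of all tested genes passed. The median of 0.04 ran from -0.11 (without OE replicate 3) to 0.15 (without OE replicate 2) when single libraries were left out, and its sign also changed with the GC offset (-0.01). Mt2, a metallothionein, was higher by 1.38 (SE 0.15, edgeR adjusted p = 0.000121) and Mmp7, the matrix protease matrilysin, by 1.14 (SE 0.16, edgeR adjusted p = 0.000517). Vegfa, the vascular growth factor, was at -0.77 (SE 0.1, edgeR adjusted p = 0.000324). Areg, Ereg and Hbegf, ligands of the EGF receptor named after their values were seen, were also lower (-0.81, -0.9 and -0.38), while Lamb3 and Ezr were higher (0.47 and 0.5). Members of this list thus went both ways, and none of the protease genes Mmp3, Mmp9, Mmp10 and Mmp13 passed the count filter.

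**Figure D4:**
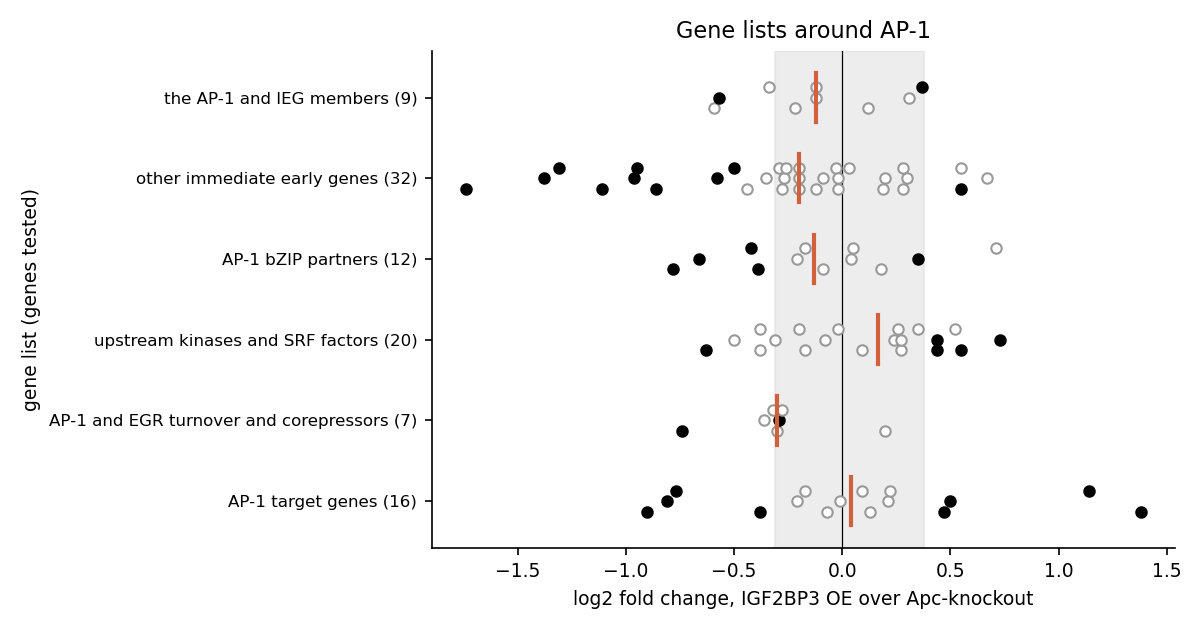
Log2 fold change (OE over control) of every tested gene in the 10-gene set and in 5 lists around AP-1; filled black points passed at an edgeR adjusted p below 0.05, the orange bar is the list's median and the grey band the middle 50% of all tested genes (-0.31 to 0.38). Most of the called points among the other immediate early genes lie left of 0 (9 of 10), and those of the target list lie on both sides (4 and 4).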

How the data were processed

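The deposited values are estimated counts for each gene, not normalized, of which 2843 (3.09% of values above 0) were fractional; they were rounded before any test, which had been planned for whole counts. Per the labels' protocols, libraries were QuantSeq 3′ forward libraries from total RNA; per the submitters' processing notes, STAR, HTSeq and the builds mm10 and GRCm38 were used. Settings, strand use and molecular identifiers are not given in the sources used here. Columns were matched to samples by library name.

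The 6 libraries were fitted with edgeR 4.0.16 (R 4.3.3; filterByExpr, TMM, quasi-likelihood test, no covariates), with Benjamini-Hochberg adjustment over 10687 genes. Standard errors are the estimate over the square root of F. The fit was tested on simulated data in which both groups had the same spread for each gene. That test did not cover the unequal spread of these groups (3.1% in control and 17.2% in OE libraries). Alternatives used limma 3.58.1, DESeq2 1.42.0, other scalings and filters, equal depth, GC offsets (loess, span 0.5), the replicate number as a block and each library left out. Genes were located in GENCODE M21 (51989 of 52249 identifiers found). Promoters are from RefSeq.

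The genes and lists were chosen with earlier results of these data known. One listed marker is not reported here. Named genes were all 10, Egr2, Egr3, Ier3, Dusp1, Zfp36, Klf4 and Klf6, up to 3 called genes per list with the smallest p, and the 3 nearest to Fos and to Jun. Every pair of control libraries differed by more than sampling noise (chi-square test, highest p = 1.66e-40), but the excess was small. Chi-square was 1.2 to 1.37 times its degrees of freedom for control pairs, against 4.76 to 9.17 times for OE pairs. The labels do not say that replicates are separate cultures, so p-values measure the spread between these libraries. Floors cover counting error only.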

Additional observations from a re-analysis of the deposited data

How the results depend on the processing

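The count of called genes among the 10 was 2 as reported. It was 1 with DESeq2 size factors, with DESeq2's test, without mitochondrial genes and CT010467.1 and at an adjusted p below 0.01, and 4 with the replicate block together with the GC offset, all 4 lower (Fos, Jun, Junb and Egr1; 25.5% of all genes were called there). The GC offset alone gave 3, all lower (23.0% of all genes). Leaving out single libraries gave 1 to 4, with 4 without OE replicate 3 and 1 without any other library. Over all 10687 tested genes the count was 3118. It was 3077 with DESeq2 size factors, 2096 with DESeq2's test and 1578 at an adjusted p below 0.01. Without mitochondrial genes and CT010467.1 it was 3113 of 10650. Without control replicates 1, 2 and 3 it was 1893 of 10945, 1837 of 10965 and 1748 of 10966. Without OE replicates 1, 2 and 3 it was 3345 of 10876, 2299 of 10869 and 3532 of 10838. The fit that called 4 of the 10 genes when 1 library was left out was thus also the one that called the most genes. The cause of these differences was not tested. With the replicate number as a block 2 of the 10 genes and 3112 genes in all were called, 2958 of them shared; Dusp1 newly passed (0.53, edgeR adjusted p = 0.0467) and Ncor1 no longer did (-0.29, edgeR adjusted p = 0.0587). Equally numbered libraries correlated at 0.1, 0.02 and 0.07 in their deviations from the group means, and the other pairs at -0.11 to 0.04. Each OE library correlated best with the equally numbered control library, while control replicate 2 correlated best with OE replicate 3 (0.04). All these correlations were weak, so the numbers were not taken as pairs. For 27 named genes, 459 values were computed: 409 had the reported direction and call, 14 newly passed and 30 lost the call. Signs changed, without passing, for Fosl1 (-0.37 to 0.42 when single libraries were left out, positive without control replicate 3), Jund (-0.26 to 0.01, positive without OE replicate 2), Zfp36 (-0.7 to 0.05, positive without OE replicate 1) and Atf3 (-0.03 to 0.21, negative without control replicate 2; -0.01 with the GC offset and 0 with the block and GC offset). The JUN sum was lower and the FOS sum higher, without overlap, under each of 4 scalings of library size. These sums were 0.756 to 0.815 and 1.1 to 1.18 times control, in that order. The sums were not computed with the GC offset. With that offset the log2 fold changes were 0.22 for Fosl2, -0.7 for Fos and -0.36 for Fosl1. For Junb, Jun and Jund they were -0.83, -0.43 and -0.36. Fosb, Egr2 and Egr3 lay near or under the floor, so no change of theirs was detectable at this depth.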
